A study of Drosophila melanogaster with 4 samples.

Results

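Broad regions that an antibody against POF recovered reproducibly outside chromosome 4 are described here. They were regions of at least 3000 bp in the list made by the authors from both replicates, called here the combined list, that lay on X, 2L, 2R, 3L or 3R and overlapped by at least 1 bp a region in the list of each POF ChIP replicate. The rule kept 516 of the 11084 combined regions on these 5 arms, or 4.66%, out of 11489 in the whole list. The same rule kept 30 of the 130 regions of chromosome 4, or 23.1%. The regions were chosen by measured width and overlap, so their widths, scores and replicate overlaps are given as descriptions without a test.

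The samples were 2 POF ChIP replicates and 2 matching inputs, which are total chromatin that was not immunoprecipitated. All came from whole embryos of the wild-type Oregon-R strain of Drosophila melanogaster at 14 to 16 h of development, fixed in 1.8% formaldehyde. Whole embryos mix all tissues, so a region can come from a fraction of the cells. Separate collections for the 2 replicates are not stated in the labels, and differences between them may then be technical. Inputs were the only control samples, so binding of POF and nonspecific recovery by the antibody cannot be told apart at any region.

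POF is an RNA-binding protein that coats the small, largely heterochromatic chromosome 4 of Drosophila melanogaster and binds mainly over its active genes. It is known to stimulate transcription there, on a chromosome that also carries the silencing protein HP1a. A few sites on X are known as well, among them the genes of the roX RNAs, which belong to the dosage compensation machinery that acts on the male X. The large autosome arms, 2L, 2R, 3L and 3R, are not known as chromosomes that POF paints.

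Regions are given as chromosome, start and end on FlyBase release 5, the build named in the file headers. The genes under them are not named, because the gene table used here is on release 6 and coordinates were not carried between builds. Each region has a deposited score, an enrichment value of the authors whose scale the headers do not state, and it is used only to rank regions within a list. Replicate 1 held 3139 regions that covered 5.99 Mb, and replicate 2 held 2853 regions that covered 5.44 Mb. Their depth in reads is unknown.

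Breadth and reproducibility went together in the combined list. On the 5 arms, 693 combined regions were at least 3000 bp wide, or 6.25%, and 74.5% of these 693 were in both replicate lists. Among all combined regions of the arms, 14.9% were in both. The share in both lists was 0.0337% of 5941 regions under 1500 bp (95% Wilson interval 0.00923 to 0.123) and 51.4% of 1904 regions from 2000 to under 3000 bp (49.2 to 53.7). It was 69.2% of 478 regions from 3000 to under 4000 bp (65.0 to 73.2) and 91.2% of 68 regions of 5000 bp and over (82.1 to 95.9). A wider region has more bases that can meet a replicate region, and no replicate region was narrower than 1301 bp. How much of the rise with width follows from these was not tested.

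**Figure D1:**
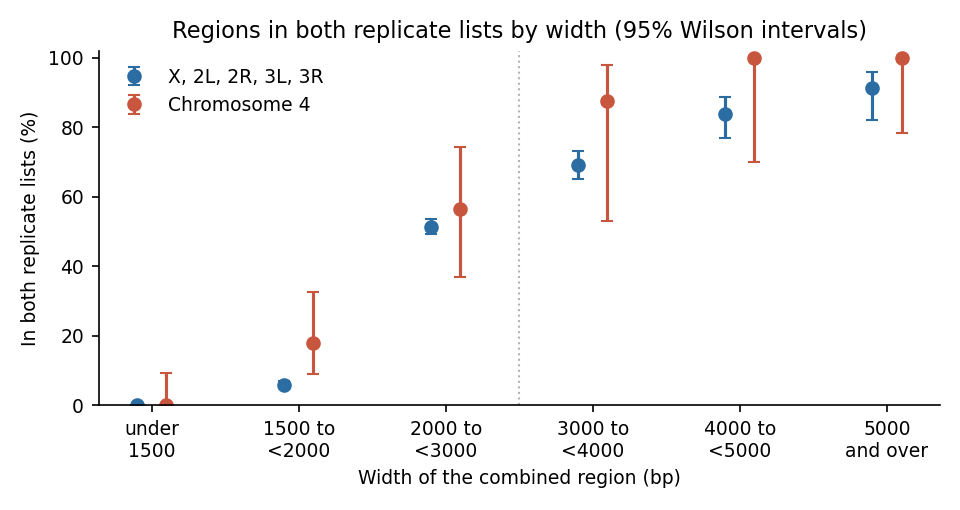
Share of combined regions found in both replicate lists (y axis, %) by width class of the combined region (x axis, bp), for X, 2L, 2R, 3L and 3R (blue) and chromosome 4 (red). Bars are 95% Wilson intervals, which cover counting error only, and the dotted line marks the 3000 bp threshold. On the 5 arms the share was 51.4% in the class just under the threshold and 69.2% in the class just above it.

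On chromosome 4, 30 of the 31 combined regions of at least 3000 bp were in both replicate lists, or 96.8% (Wilson interval 83.8 to 99.4). On the 5 arms the share was 74.5% (71.1 to 77.6). Overlap was part of the rule, so the intervals are no test of the 2 groups. The groups also differed in width, with 14 of the 31 regions and 68 of the 693 at 5000 bp and over. From 4000 to under 5000 bp, 123 of 147 regions on the 5 arms and 9 of 9 on chromosome 4 were in both lists, and at 5000 bp and over 62 of 68 and 14 of 14 were. Within each width class above the threshold the intervals of the 2 groups overlapped, and the chromosome 4 classes were small. Such small classes cannot show whether the groups differ at equal width. All these intervals treat the regions of a list as independent and cover counting error only.

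The threshold did not fall at a natural break. The narrowest members had 3003, 3003 and 3006 bp, and the widest regions in both lists that missed the threshold had 2998, 2994 and 2992 bp. The members just inside lay at 2L:20833650-20836652, with a combined score of 0.472, at 3R:22622679-22625681, with 1.18, and at 3R:3298491-3301496, with 0.730. Those just outside lay at X:13631977-13634974, with 0.864, at 3R:25631097-25634090, with 0.589, and at 3L:3051363-3054354, with 0.752. Scores on the 2 sides of the threshold overlapped.

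Broad reproducible regions were present on every large arm at a similar density, apart from 3L. X held 117, or 5.72% of its combined regions, 2L held 101, or 5.27%, 2R held 110, or 4.73%, 3L held 65, or 3.06%, and 3R held 123, or 4.6%. Per Mb this was 5.22 on X, 4.39 on 2L, 5.20 on 2R, 2.65 on 3L and 4.41 on 3R, with 4.34 on the 5 arms together. 3L, the arm with the lowest value, held 12.6% of the members (95% Wilson interval 10.0 to 15.7) on 20.6% of the sequence. It held more of the other classes, with 19.1% of all combined regions and 17.7% of the narrower regions in both lists.

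By width 3L had the lowest share of the 5 arms, and by overlap it was level with 2R. Of its 2121 combined regions, 4.43% were at least 3000 bp wide, against 6.25% on all 5 arms, and 69.1% of those 94 were in both lists, against 74.5%. On 2L the second share was 82.8%, the highest of the 5. X held 22.7% of the members (19.3 to 26.5) on 18.8% of the sequence, and 18.5% of all combined regions. 2R held 21.3% (18.0 to 25.1) on 17.8% of the sequence. 2L and 3R were close to their length, with 19.6% of members on 19.3% of sequence and 23.8% on 23.4%.

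Chromosome 4 had 22.2 regions per Mb by the same rule, so the density on the 5 arms was 0.195 times that of chromosome 4. Members covered 2070 kb, or 1.74% of the 5 arms, and 165 kb, or 12.2%, of chromosome 4. Counted without the rule, the combined list had 93.1 regions per Mb on the 5 arms and 96.2 on chromosome 4. Narrower regions in both lists had 9.51 per Mb on the 5 arms and 14.8 on chromosome 4. The 2 groups were thus closest in the number of regions called and farthest apart in the broad class, with narrower reproducible regions in between. Members made up 11.1% of all combined bases on the 5 arms and 49.2% on chromosome 4. With 2 replicates the smallest p of an exact permutation test is 0.5, so no test over samples could pass a threshold of 0.05.

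**Figure D2:**
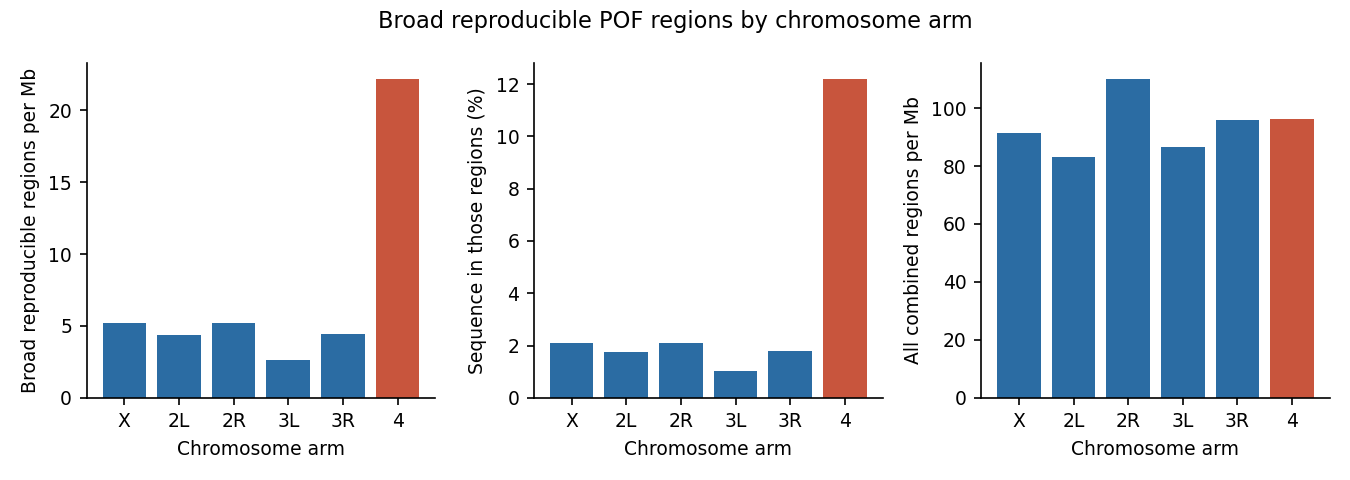
Broad reproducible regions per Mb (left), the percent of sequence inside them (middle) and all combined regions per Mb (right) for each of the 5 large arms (blue) and chromosome 4 (red). The values are single counts from the combined list and have no error bars. The 5 arms lay between 2.65 and 5.22 broad regions per Mb and chromosome 4 at 22.2, while all combined regions ranged from 83.3 to 110 per Mb on the 5 arms, with chromosome 4 inside that range at 96.2.

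The gap between the chromosomes grew with width. At a minimum of 2000 bp the density on the 5 arms was 0.395 times that of chromosome 4, at 4000 bp it was 0.0914 times, and at 5000 bp it was 0.0503 times. At that last width 62 regions were left on the 5 arms and 14 on chromosome 4. The median width of members was 3714.5 bp on the 5 arms (quartiles 3331 and 4301 bp) and 4985 bp on chromosome 4 (4123 and 6245 bp). Most members on the arms were thus close to the threshold: 331 of 516 were under 4000 bp, against 7 of 30 on chromosome 4.

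The widest regions of all were nevertheless on the large arms. The region 3R:12070171-12082995 had 12825 bp, 2L:12001281-12013371 had 12091 bp and 2R:18560201-18571582 had 11382 bp. On chromosome 4 the widest ran from 799351 to 810349, with 10999 bp, and was followed by 669896 to 679028, with 9133 bp, and 1046870 to 1055970, with 9101 bp. Regions of 7000 bp and over numbered 11 on the 5 arms, on 119.0 Mb of sequence, and 6 on the 1.35 Mb of chromosome 4.

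These very wide regions were unlike one another in the replicates. The 2L region was nearly continuous: replicate 1 covered 92.8% of it in 1 piece and replicate 2 covered 84.7% in 2 pieces, and its combined score of 1.32 ranked 108. The 3R region was broken, with 45.2% covered in 2 pieces in replicate 1 and 68.8% in 3 pieces in replicate 2. The 2R region had 50.4% and 57.1% covered, in 2 pieces each, and 34.1% covered in both.

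Each large arm had its own very wide regions. On X the widest were X:5588090-5595228 with 7139 bp, X:19736436-19743529 with 7094 bp and X:4576591-4583198 with 6608 bp. The last of these had 81.9% and 81.3% of its length covered in replicates 1 and 2, whereas X:19736436-19743529 had 29.8% and 23.5%. On 3L the widest was 3L:17959671-17966727 with 7057 bp, followed by 3L:5800391-5806956 with 6566 bp and 3L:636693-642502 with 5810 bp. Replicate cover of these 3 regions lay between 45.9% and 75.4%, so none of them was covered nearly end to end.

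After the widest ones named above, the next on 2L were 2L:5976730-5984086, with 7357 bp, and 2L:2747710-2754216, with 6507 bp, of which 75.3% and 75.4% was covered in replicates 1 and 2. On 2R, 2R:18791443-18801037 had 9595 bp and 2R:20825773-20834203 had 8431 bp. On 3R, 3R:27042573-27050833 had 8261 bp and 3R:15727605-15734425 had 6821 bp, with 72.6% and 80.7% covered.

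Breadth on the 5 arms was largely a property of the combined list. In the replicate lists themselves, a region of at least 3000 bp matched 127 of the 516 members in replicate 1 and 100 in replicate 2. Only 57 members, or 11.0%, had such a region in both replicates, and 346 had it in neither. On chromosome 4, 11 of 30, or 36.7%, had such a region in both replicates and 8 had it in neither. The label of broad and reproducible regions therefore holds for the combined width and for overlap, and for 57 members on the 5 arms it also holds for breadth in each replicate.

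From the side of the replicates, 568 of the 3025 replicate 1 regions on the 5 arms lay in members, or 18.8%, and 574 of 2738 in replicate 2, or 21.0%. Their median widths were 2191 bp in replicate 1 and 2158 bp in replicate 2, and those of the other regions on the arms were 1712 and 1738 bp. Of the few replicate regions that were themselves at least 3000 bp wide, 127 of 134 in replicate 1 and 101 of 107 in replicate 2 lay in members.

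The 2 replicates covered similar amounts of the members. The median member on the 5 arms had 65.4% of its length covered in replicate 1 (range 22.4 to 100%) and 64.7% in replicate 2 (23.5 to 100%). On chromosome 4 the medians were 70.7% (39.4 to 97.4%) and 76.8% (38.5 to 97.2%). The ranges of the 2 groups overlapped almost entirely. Summed over members, replicates 1 and 2 covered 66.9% and 65.2% of member bases on the 5 arms, or 66.0% ± 1.23 (SD, n = 2), against 73.0% and 74.6% on chromosome 4, or 73.8% ± 1.10. Both replicates were measured on the same chosen regions, so the SD does not measure a spread against which the chromosomes can be set. By arm the mean was highest on 2L, at 70.3% ± 2.66, and lowest on 2R, at 62.2% ± 0.593.

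Replicate regions hardly reached beyond the members. Of the bases of replicate regions that touched a member on the 5 arms, 0.746% in replicate 1 and 0.270% in replicate 2 lay outside it. No replicate region touched more than 1 member. The midpoint of the member was covered in 452 of 516 members in replicate 1, or 87.6%, and in 445 in replicate 2, or 86.2%. Over the central 20% of the width, 86.0% and 85.4% of bases were covered on average, and over the outer 10% at each end 39.0% and 35.7%. Members on chromosome 4 were also less covered at the ends, at 41.4% and 47.3%, than in the centre, at 84.2% and 90.7%. In replicate 1 their cover was highest off centre, at 90.5% in the step from 60 to 65% of the width. The minimum replicate width was 1301 bp. A piece that long in a region of about 3000 bp reaches the middle more easily than the ends. How much of this shape follows from that was not tested.

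**Figure D3:**
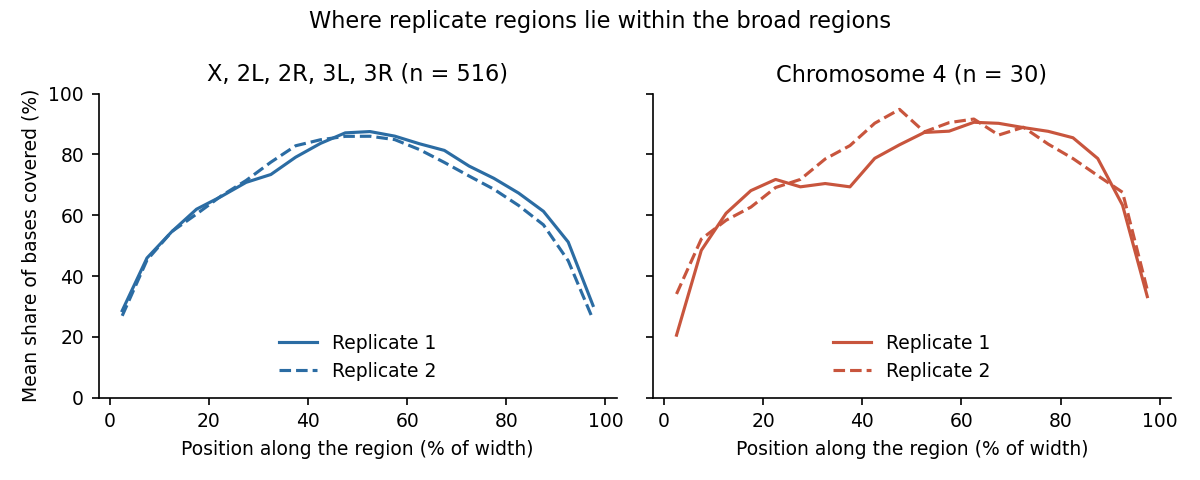
Mean share of bases covered by a replicate region (y axis, %) along the width of a broad region from its lower to its higher coordinate (x axis, % of width, in steps of 5%), for 516 regions on the 5 large arms (left) and 30 on chromosome 4 (right). Solid lines are replicate 1 and dashed lines replicate 2. Cover was lowest at the ends in both groups. It was highest near the middle on the 5 arms, at 86.0% and 85.4% over the central 20%, and off centre in replicate 1 on chromosome 4, at 90.5% from 60 to 65% of the width.

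The replicates often covered unlike parts of the same member. Of the member bases on the 5 arms, 53.2% were covered in both replicates, 25.7% in only 1 of them and 21.1% in neither. On chromosome 4 these shares were 59.7%, 28.2% and 12.1%. Shared bases made up 67.5% of the bases covered in either replicate on the 5 arms and 67.9% on chromosome 4. The chromosomes thus differed mainly in the part of a combined region that neither replicate list held.

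Cover in replicate 1 and replicate 2 was only loosely related across members. Pearson's r was 0.377 and Spearman's rho 0.366 over the 516 members on the 5 arms, and 0.330 and 0.452 over the 30 on chromosome 4. Both replicates are measured on the same combined region and share its width, so these values are a description. The median absolute gap between the replicates was 11.7 percentage points on the 5 arms and 10.8 on chromosome 4. Neither replicate covered more as a rule: replicate 1 covered more of 261 members and replicate 2 more of 255.

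**Figure D4:**
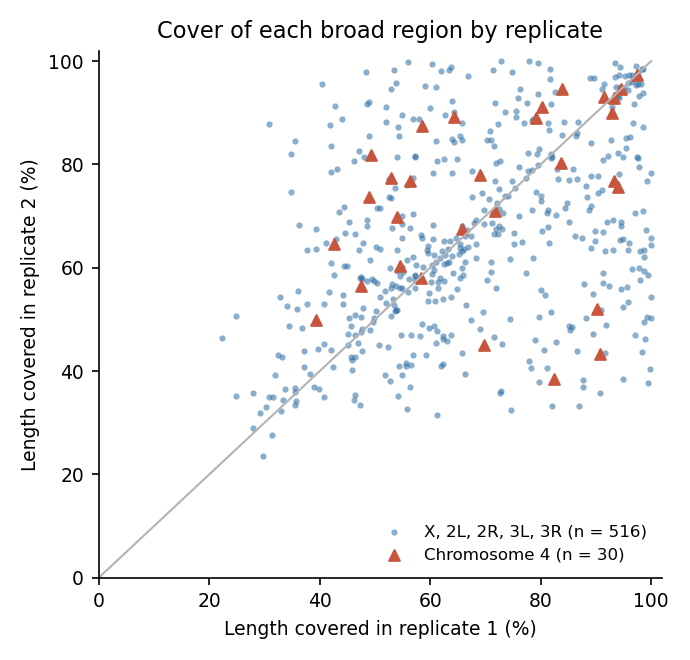
Percent of the length of each broad region covered in replicate 1 (x axis) and in replicate 2 (y axis), with 1 point for each of 516 regions on the 5 large arms (blue circles) and 30 on chromosome 4 (red triangles). The line marks equal cover. Points scatter widely on either side of the line, with r of 0.377 on the 5 arms, and both groups share most of the plotted range.

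At the upper end, 31 members on the 5 arms, or 6.01%, had at least 90% of their length covered in each replicate, and 13 of these lay on 2L. On chromosome 4 there were 4 of 30. The best covered member was X:14967892-14971408, with 98.6% in replicate 1 and 98.5% in replicate 2, and it was closely followed by 3R:25596627-25601488, with 98.4% in each. The next were 3R:19103995-19107654, with 97.6% and 97.9%, and a pair of neighbours on 2L separated by 955 bp. The first of that pair, 2L:2191131-2194698, had 97.3% and 99.1%, and the second, 2L:2195654-2201256, had 97.4% and 96.5%. In these 5 members the combined boundaries and those of both replicates nearly coincided.

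At the lower end, 15 of the 516 members on the 5 arms met the rule although no base was covered in both replicates. On chromosome 4 there were 0 of 30, too few members to set the 2 shares apart. In X:20262331-20268150, of 5820 bp, replicate 1 covered 22.4% and replicate 2 covered 46.3%, at different places, and its combined score of 0.709 ranked 763. Of the 15, 6 lay on 2R and 5 on 3R, which held 21.3% and 23.8% of all members on the 5 arms. Cover was under 50% of the member in 109 members for replicate 1 and 113 members for replicate 2. On chromosome 4 it was in 5 and 4.

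Most members on the 5 arms were a single piece in each replicate. Replicate 1 had 1 piece in 464 members and 2 pieces in 52. Replicate 2 had 1 piece in 461, 2 pieces in 52 and 3 pieces in 3. In 428 members, or 82.9% (95% Wilson interval 79.5 to 85.9), both replicates had 1 piece, and in 19 both had more. On chromosome 4, 13 of 30 had 1 piece in both, or 43.3% (27.4 to 60.8), and 5 had more in both. Replicates had a mean of 1.11 ± 0.00822 pieces per member on the 5 arms (SD, n = 2), with 1.10 for replicate 1 and 1.11 for replicate 2. On chromosome 4 the means were 1.43 and 1.40.

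The share of members in 1 piece fell with width in both groups. On the 5 arms the share of members in 1 piece in both replicates was 93.4% of 331 members from 3000 to under 4000 bp, 74.8% of 123 members from 4000 to under 5000 bp and 43.5% of 62 members of 5000 bp and over. On chromosome 4 it was 6 of 7, 5 of 9 and 2 of 14. Within each width class chromosome 4 had the lower share, and the 95% Wilson intervals of the 2 groups overlapped. The chromosome 4 classes were too small to show whether the groups differ at equal width. In cover, the widest class differed in the same direction in both replicates, with 64.6% and 62.7% on the 5 arms against 74.5% and 75.8% on chromosome 4. So did the class from 4000 to under 5000 bp, with 66.1% and 59.7% against 70.9% and 78.9%. In the class from 3000 to under 4000 bp the replicates went opposite ways, with 68.0% and 68.6% against 70.7% and 62.3%.

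The typical break inside a member was short. Where a replicate had more than 1 piece, the gaps between pieces were averaged for each member. The median of these values on the 5 arms was 294 bp for replicate 1 and 316 bp for replicate 2. On chromosome 4 it was 633 bp and 266 bp. Some breaks were long, such as 3433 bp in X:5588090-5595228 and 2393 bp in 3R:12070171-12082995, both in replicate 1. Joining pieces closer than 500 bp raised the share of members in 1 piece in both replicates to 93.4% on the 5 arms. The longest piece in a member had a median of 2240.5 bp in replicate 1 and 2197 bp in replicate 2, against 3046 and 3388.5 bp on chromosome 4. These medians lay under the 3000 bp asked of the combined region on the 5 arms and above it on chromosome 4.

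The most pieces, 5 over both replicates, were found in 2R:20825773-20834203, with 2 in replicate 1 and 3 in replicate 2, and in the 12825 bp region of 3R. The next, with 2 in each replicate, included 2L:10426850-10432461, 2L:19130572-19134821 and 2L:19574437-19578894. Cover of these 3 regions on 2L was 71.4% and 70.4%, 95.4% and 83.2%, and 81.6% and 96.5% in replicates 1 and 2. Each replicate thus covered most of these regions.

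Members scored above most of the combined list. Their median combined score was 0.639 on the 5 arms and 0.586 on chromosome 4, against 0.483 for all combined regions on the 5 arms and 0.604 for the 1132 narrower regions there in both lists. Of the members on the arms, 235 of 516, or 45.5%, ranked among the best 1000 of 11489 regions, which is 8.70% of the list. On chromosome 4, 9 of 30 did. By arm the median was 0.707 on X, 0.642 on 2L, 0.636 on 3L, 0.609 on 2R and 0.607 on 3R, and 72 of the 117 on X ranked among the best 1000. How many of all combined regions on X or on chromosome 4 ranked so was not counted. These values therefore do not set members apart from the other regions of their chromosome. Selection by overlap favours high scores, so the level is not a finding. Score and width were hardly related among members on the 5 arms (Spearman's rho 0.0271), whereas score and cover were, with rho of 0.476 in replicate 1 and 0.457 in replicate 2.

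The best score among the members was 2.55, at X:14074394-14077956, a region of 3563 bp that replicates 1 and 2 covered to 94.4% and 98.8%. In replicate 1 it scored 2.34, rank 7, and in replicate 2 it scored 2.75, rank 3. The next was 2R:18791443-18801037, of 9595 bp, at 2.07. There, replicate 1 covered 35.6% and replicate 2 covered 33.5%, each in 1 piece, with scores of 2.82 and 3.27 that ranked 5 and 1. A strong and much narrower replicate region thus lay inside a wide combined one.

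The other 3 of the best scoring members were 2L:5518348-5521478 at 1.59, 3R:25596627-25601488 at 1.56 and 2L:2803733-2809489 at 1.55. All 3 were covered to at least 77.8% in each replicate. Of the 100 best scoring regions of each replicate, 88 in replicate 1 and 92 in replicate 2 lay on the 5 arms. Of these, 37 and 44 fell in a member. Of all regions, 3025 of 3139 in replicate 1 and 2738 of 2853 in replicate 2 lay on the 5 arms. Of those, 18.8% and 21.0% fell in a member.

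Members were unevenly spaced along the arms. The median distance from a member to its nearest neighbour was 42.4 kb on the 5 arms, where the average spacing was 231 kb, and 11.3 kb on chromosome 4, where it was 45.1 kb. As a share of the average spacing these were 18.4% and 25.1%. The same share was 23.0% for narrower regions in both lists and 21.0% for all combined regions on the 5 arms, so a low share was not particular to members. Distances run from edge to edge, whereas the average spacing includes the regions themselves. That lowers the share most where regions are dense, so small differences between these shares are not read. By arm the median distance was 31.4 kb on X, 38.8 kb on 2R, 44.0 kb on 3R, 61.4 kb on 2L and 75.3 kb on 3L. The most isolated member, on 2R, had its nearest neighbour 1456 kb away.

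**Figure D5:**
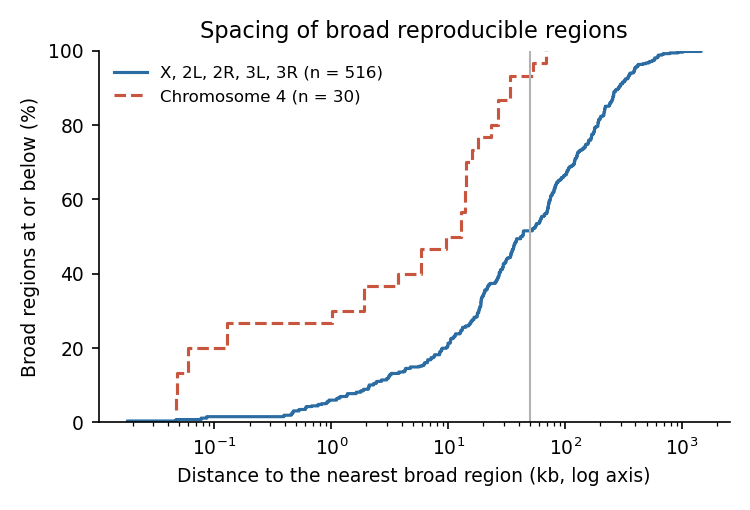
Cumulative share of broad reproducible regions (y axis, %) by distance to the nearest other one on the same chromosome arm (x axis, kb, log axis), for 516 regions on the 5 large arms (blue, solid) and 30 on chromosome 4 (red, dashed). The grey line marks 50 kb, the gap used to chain regions into clusters. At that distance 51.6% of the regions on the 5 arms and 93.3% of those on chromosome 4 had a neighbour.

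With members chained into clusters where the gap was at most 50 kb, 266 of the 516 on the 5 arms, or 51.6% (95% Wilson interval 47.2 to 55.8), fell in 108 clusters, and 250 stood alone. On chromosome 4, 28 of 30 fell in 6 clusters, on a chromosome whose average spacing was itself under 50 kb. Of the clusters on the 5 arms 74 were pairs, 34 had at least 3 members and 5 had at least 5. X held 3 of those 5 and 3R the other 2. By arm the share of members in clusters was 59.0% on X, 52.0% on 3R, 51.8% on 2R, 46.2% on 3L and 45.5% on 2L, with intervals that all overlapped. The denser classes on the 5 arms were chained more often than members. The share in clusters was 71.1% for narrower regions in both lists, with an average spacing of 105 kb. For all combined regions it was 99.8%, with an average spacing of 10.7 kb.

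The cluster with the most members, 7, ran over 130 kb at X:1902847-2033145, and members covered 22.1% of it. Its members had 3075, 3252, 3068, 6211, 3606, 4177 and 5386 bp in order along X, with combined scores between 0.620 and 1.37. Replicate 1 covered between 72.9% and 100% of each, and replicate 2 between 50.1% and 79.0%. A cluster of 6 members, X:1754032-1848250, lay just before it, and with a gap of up to 100 kb the 2 clusters joined into 1 of 13.

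The next cluster, with 6 members, was 3R:1389706-1476081, where members covered 30.0% of 86.4 kb. Combined scores lay between 0.471 and 0.614. Replicate 1 covered between 31.5% and 79.2% of each member, and replicate 2 between 27.7% and 74.6%. The lowest value of each was in 3R:1436742-1441611, which had no base in both replicates.

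The densest of the large clusters was 3R:12030250-12087703, with 6 members over 57.5 kb, of which they covered 68.1%. It holds the widest region of all, 3R:12070171-12082995, which is separated from its neighbour 3R:12083043-12087703 by 47 bp. The better covered members of this cluster were 3R:12030250-12036503, with 81.6% and 98.5% in replicates 1 and 2, and 3R:12059539-12063806, with 86.4% and 85.6%. The last member had 33.0% and 32.3%.

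Closely abutting members were a small part of the set. A neighbour within 1 kb was found for 31 members on the 5 arms, or 6.01%, of which 13 lay on X, and for 8 of 30, or 26.7%, on chromosome 4. The smallest gap was 18 bp, before 3L:636693-642502. Any combined region, of whatever width, lay within 1 kb of 187 members on the 5 arms, or 36.2%, against 29.1% of all combined regions there and 20 of 30 members on chromosome 4. Merging combined regions closer than 1000 bp gave 829 members on the 5 arms in place of 516. How the authors' method drew the line between 2 regions is not given, and its effect on the width of such members was not tested.

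In whole windows of 1 Mb, the 5 arms had a median of 4 members and at most 20. That window, X:1000001-2000000, had 7.67% of its bases in members, against 13.2% in the single whole window of chromosome 4, which held 24 regions. It also had 152 combined regions. The next window was 2R:19000001-20000000, with 12 members, and only 1 of 117 windows had none. Without its richest window X had 4.53 members per Mb in place of 5.22, and 2R had 4.86 in place of 5.20. The top place of X therefore rests on that window. 3L was lowest without its own as well, at 2.38.

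Members were not gathered at the heterochromatic ends of the arms. Within 2 Mb of the centromere-proximal end of the sequence lay 26 of 516, or 5.04%, close to the 5.62% of all combined regions, on 8.40% of the length. On 3R, 13 of its 123 members, or 10.6%, lay in that stretch, against 8.34% of all combined regions, 10.5% of the narrower regions in both lists and 7.17% of its length. Of these 13, 6 form the cluster 3R:1389706-1476081. The median member lay 13.3 Mb from that end.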

How the data were processed

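ChIP-seq with an antibody against POF was deposited as 3 lists of regions of significant enrichment, 1 for each of the 2 ChIP replicates and 1 for the replicate set. The build is FlyBase release 5, per the file headers, and positions count from 1. Per the submitters' processing notes, Bowtie 0.12.7 was among the tools. How regions were called, at which threshold, and how the replicate set was formed is not given in the sources used here. Each region's deposited score is the authors' enrichment value, on a scale that is not stated. Depth is unknown, so intervals cover counting error only. Regions were no narrower than 1301 bp in the replicate lists, against 1001 bp in the combined one.

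Groups and replicate numbers came from the sample titles. Replicate regions were clipped to each member, and covered bases and pieces were counted for each replicate. Members with gaps of at most 50 kb were chained into clusters. Named regions were the 3 widest of each arm, the 5 with the best combined score, the most pieces or the highest cover in the replicate that covers less, those of the 3 largest clusters (ties by chromosome name, then start), and the 3 nearest the width threshold on each side. The region X:20262331-20268150 and the cluster next to the largest were named after their values were seen, as were regions that abut. The members, lists and rules were chosen with earlier results of these data known. Interval counts were checked against base-by-base counts on simulated lists. Alternatives varied the width, the overlap, merging, the score, the gap and the replicates. The tools were scipy 1.17.1, numpy 2.4.6 and pandas 2.3.3 for values and matplotlib 3.10.9 for figures, under Python 3.11.15.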

Additional observations from a re-analysis of the deposited data

How the results depend on the processing

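The density of members on the 5 arms stayed below that of chromosome 4 under all 9 alternatives run for it, with ratios from 0.0503 to 0.395, and 3L had the lowest share of members under all 6 run for arm shares. With a minimum width of 2000, 4000 or 5000 bp the arms had 1495, 185 or 62 members, 12.6, 1.55 or 0.521 per Mb and 3.69, 0.782 or 0.330% of sequence, at ratios to chromosome 4 of 0.395, 0.0914 and 0.0503. Asking each replicate to cover 50% of the region left 343 members, 2.88 per Mb and 1.12% of sequence, and merging regions closer than 1000 bp gave 829, 6.96 per Mb and 3.65%, at a ratio of 0.314. Overlap with 1 replicate list alone gave 575 to 584 members. Chromosome 4 had 14 regions at 5000 bp. Shares on X, 2R and 3L were 27.4%, 16.1% and 9.68% at 5000 bp, and that of 3L was 16.1% at 2000 bp. Median cover, 65.1% ± 0.524 over the replicates, was 83.4% at 2000 bp, 68.6% at 5000 bp and 66.2% in the better scoring 50% of the list. Pieces per member were 1.04 and 1.40 at 2000 and 5000 bp and 1.04 with pieces closer than 500 bp joined, and the share in 1 piece in both replicates was then 94.0%, 43.5% and 93.4%. The share in clusters was 34.1% and 66.5% with gaps of 20 and 100 kb, 81.3% and 14.5% at 2000 and 5000 bp, and 64.3% after merging. There were 361 clusters at 2000 bp, 4 at 5000 bp and 195 after merging, and the largest had 13 members at 100 kb, 27 at 2000 bp and 3 at 5000 bp. Counts at other widths follow from the number of regions kept; for the rest the cause was not tested. Leaving out a replicate for cover and pieces was chosen after seeing the data.

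No paired analysis was possible because lists of regions were used for the ChIP replicates only, which leaves no second group to pair. With the depth unknown, a part of a member that a replicate list lacks cannot be separated from one too weak to be called.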

Other observations

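On the 5 arms 177 combined regions of at least 3000 bp were not in both replicate lists. Of these, 68 overlapped replicate 1 only, 59 replicate 2 only and 50 neither. Their median width was 3357 bp and their median combined score 0.476, and the widest had 6273 bp. The 50 in neither list reached 4656 bp, with a median score of 0.457.

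Outside the main arms the same rule found 3 regions. They were 2LHet:31985-35559, with a combined score of 0.425, and, on the unplaced sequence U, 5629994 to 5634555, with 0.406, and 7542651 to 7545669, with 0.841. The first had 94.7% of its length covered in replicate 1 and 44.8% in replicate 2, and the last had 71.0% and 73.6%.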
